A study of Mus musculus with 6 samples.

Results

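The circadian clock genes of mouse bone mesenchymal stem cells (MSCs) were followed in the profile of acetylated histone H3 (H3ac), a mark of active promoters and enhancers. The genes were Clock, Arntl, Per1, Per2, Per3, Cry1, Cry2, Nr1d1, Nr1d2 and Dbp. Their regions were those of the H3ac table that overlapped the body of a gene extended by 5 kb on either side. This rule used position alone and gave 19 of 24431 regions. A region that came within 1 kb of the annotated start of its gene was taken as the promoter region, and 10 of the 19 regions, 1 for each gene, were of this kind, among 9892 promoter regions in the table. The other 9 regions lay upstream, inside or downstream of 5 of the genes.

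H3ac was measured by CUT&RUN, in which a nuclease tethered to an antibody cuts out the marked chromatin for sequencing. MSCs of mice aged 3 to 5 months formed the group Young and MSCs of mice aged 18 to 22 months the group Old, both untreated. The group OldAcetate held MSCs of mice aged 18 to 22 months that had received 5 mM sodium acetate for 3 days. There were 2 libraries in each group, and all cells were kept at 2% oxygen. The labels name no strain, genotype or sex, and do not say whether the libraries of a group came from separate animals, so the tests measure only the spread between these libraries. Nor do they give the time of day at which cells were taken or whether the cultures were synchronised.

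The clock is a loop of transcription in which CLOCK and ARNTL (BMAL1) bind E-boxes as a pair and drive the Per and Cry genes, whose proteins return to the nucleus and inhibit that pair. A second loop runs through the REV-ERB receptors, encoded by Nr1d1 and Nr1d2, which compete with ROR activators at ROR sites and repress Arntl. Dbp is an output gene of the loop and encodes an activator that binds D-boxes, and the loop runs in most cell types, bone and stromal cells included, with mRNAs that rise and fall over the day.

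Library totals ran from 2163351 to 3039481 reads, and the share of reads in regions from 45.9% to 64.8%, lowest in both Old libraries. Values are in RPM, reads scaled to the total of their library, and are not divided by region length. Clock gene promoter regions held 17 to 399 reads in a library and the other regions 6 to 57, so that counting error alone ran from 5.01% of a value at the highest count to 40.8% at the lowest. The labelled cell type was checked against markers: 12 of 12 stromal genes had a promoter region, against 2 of 8 hematopoietic genes (Spi1 and Klf1, with none at Ptprc) and 0 of 5 endothelial genes. Regions anywhere within 5 kb of the gene body were present at 3 of the 8 (Csf1r added) and at 3 of the 5 (Pecam1, Kdr and Tie1). Summed over the promoter regions of those 2 hematopoietic genes the level was 29.0 and 34.7 RPM in Young against 23.6 and 25.5 in Old, with 25.5 and 29.6 in OldAcetate. The stromal sum was lowest in Old as well, with 1026 and 916 RPM for Young, 788 and 754 for Old and 947 and 969 for OldAcetate. The part of these levels in the results was not tested. Old replicate 1 stood apart from the other libraries on the first principal component (25.3% of the variance).

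RefSeq promoters (250 bases before to 50 bases after a start, build GRCm38.p6) were found for 9 of the 10 genes, 13 promoters in all. None was found for Per2, so no such window of Per2 was searched. Each of the 13 lay inside the H3ac promoter region of its gene. They were searched on both strands for the E-box CACGTG, the E'-box CACGTT, the D-boxes TTATGTAA and TTACGTAA, the ROR cores TAGGTCA and TGGGTCA, and the cAMP response element TGACGTCA. A match is a description of the letters and not a bound site. Of the 6 promoters with a match, 4 are printed, 1 for each kind of element through which the loop acts on these genes, 5′ to 3′ on the strand of the gene with matches in capitals. The Per1 promoter at chr11:69098699-69098998, on the plus strand, holds an E-box. That of Cry1 at chr10:85185005-85185304, on the minus strand, holds an E-box and, before it, an E'-box read on the other strand. In Per3 (chr4:151044616-151044915, minus strand) the capitals are a pair of D-boxes, and in the second of the Arntl starts (chr7:113207261-113207560, plus strand) a ROR core.
Per1: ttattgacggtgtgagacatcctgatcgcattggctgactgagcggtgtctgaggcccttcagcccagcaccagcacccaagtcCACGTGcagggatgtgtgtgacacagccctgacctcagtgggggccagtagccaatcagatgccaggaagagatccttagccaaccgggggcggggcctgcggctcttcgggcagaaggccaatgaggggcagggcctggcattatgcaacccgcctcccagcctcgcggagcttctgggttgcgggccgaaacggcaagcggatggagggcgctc
Cry1: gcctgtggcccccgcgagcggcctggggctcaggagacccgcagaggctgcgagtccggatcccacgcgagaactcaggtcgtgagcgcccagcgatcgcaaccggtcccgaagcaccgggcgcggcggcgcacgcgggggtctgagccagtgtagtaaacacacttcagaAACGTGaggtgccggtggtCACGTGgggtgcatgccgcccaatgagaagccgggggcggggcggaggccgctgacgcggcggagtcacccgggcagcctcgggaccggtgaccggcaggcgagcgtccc
Per3: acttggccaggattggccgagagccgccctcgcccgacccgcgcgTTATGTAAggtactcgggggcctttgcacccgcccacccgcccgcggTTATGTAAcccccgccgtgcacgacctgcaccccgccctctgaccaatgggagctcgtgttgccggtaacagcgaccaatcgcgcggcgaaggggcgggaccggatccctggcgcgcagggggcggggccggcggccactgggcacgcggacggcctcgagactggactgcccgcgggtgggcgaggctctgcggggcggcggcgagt
Arntl: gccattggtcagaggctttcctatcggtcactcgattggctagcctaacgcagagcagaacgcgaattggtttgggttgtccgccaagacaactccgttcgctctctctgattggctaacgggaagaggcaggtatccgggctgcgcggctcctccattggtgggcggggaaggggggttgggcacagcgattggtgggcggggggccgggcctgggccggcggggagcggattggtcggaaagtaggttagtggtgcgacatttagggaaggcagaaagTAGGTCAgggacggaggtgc

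Counted from the first base of the transcript, the match began 166 bases upstream in Per1, 60 (E-box) and 79 (E'-box) bases upstream in Cry1, and 205 and 158 bases upstream in Per3, while that of Arntl began at base 31 of the transcript. An E'-box was also present in Cry2 (166 bases upstream) and Nr1d1 (28 bases upstream). None of these letters was found in the windows of Clock, Nr1d2 and Dbp, in the other start of Arntl or in the other start of Per1. Among all 32851 promoters of the same length, 7.15% held the E-box, 4.68% the E'-box, 1.06% a D-box, 6.45% a ROR core and 1.79% the cAMP response element, which no clock gene promoter held. Over the much longer H3ac promoter regions, the E-box occurred 7 times in that of Per1, a count that 1.89% of 1114 promoter regions of like length (within 25% of its own) reached or passed. Nr1d1 held 11 (7.46% of 295 regions), Dbp 7 (9.62% of 655), and Nr1d2 and Cry2 3 each (16.9% and 39.3%). Per2, Cry1, Clock and Arntl held 1 each (69.4%, 51.1%, 69.4% and 81.3%), and Per3 none. The regions of like length were not matched for GC content. It ran from 46.0% (Clock) to 55.7% (Dbp), with 53.2% at Per1 and 52.1% at Nr1d1, against a median of 48.3% over all promoter regions. The Arntl promoter region held 8 ROR cores, a count reached or passed by 2.70% of 1443 regions of like length. ROR cores numbered 8 at Nr1d1 (69.2%), 7 at Cry2 (12.7%), 6 at Dbp (53.0%), and 3 each at Clock (32.9%) and Per1 (72.3%). There were 2 each at Per2 (57.9%) and Nr1d2 (61.6%), and none at Per3 and Cry1.

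H3ac covered every clock gene at its start, but over very different lengths. The promoter region of Nr1d1 spanned 37000 bp and that of Dbp 24500 bp, and both held the whole gene, whereas those of Per3 and Cry1 spanned 4500 bp each. The promoter regions of 3 genes also held the start of another protein-coding gene, so their level is shared: Per1 with Vamp2, Nr1d1 with Msl1, and Dbp with Car11, Fam83e, Rpl18 and Sphk2. The Nr1d1 region overlapped Thra as well, whose transcript runs against Nr1d1, and the Per3 region overlapped Camta1. Away from the starts, Arntl had 3 further regions, Per2 and Cry1 2 each, and Clock and Nr1d2 1 each, while Per1, Per3, Cry2, Nr1d1 and Dbp had none. Of these 9 regions, 8 held no exonic base of the clock gene, and 2 lay over the start of a neighbouring gene, Hes6 downstream of Per2 and Mterf2 downstream of Cry1.

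**Figure D1:**
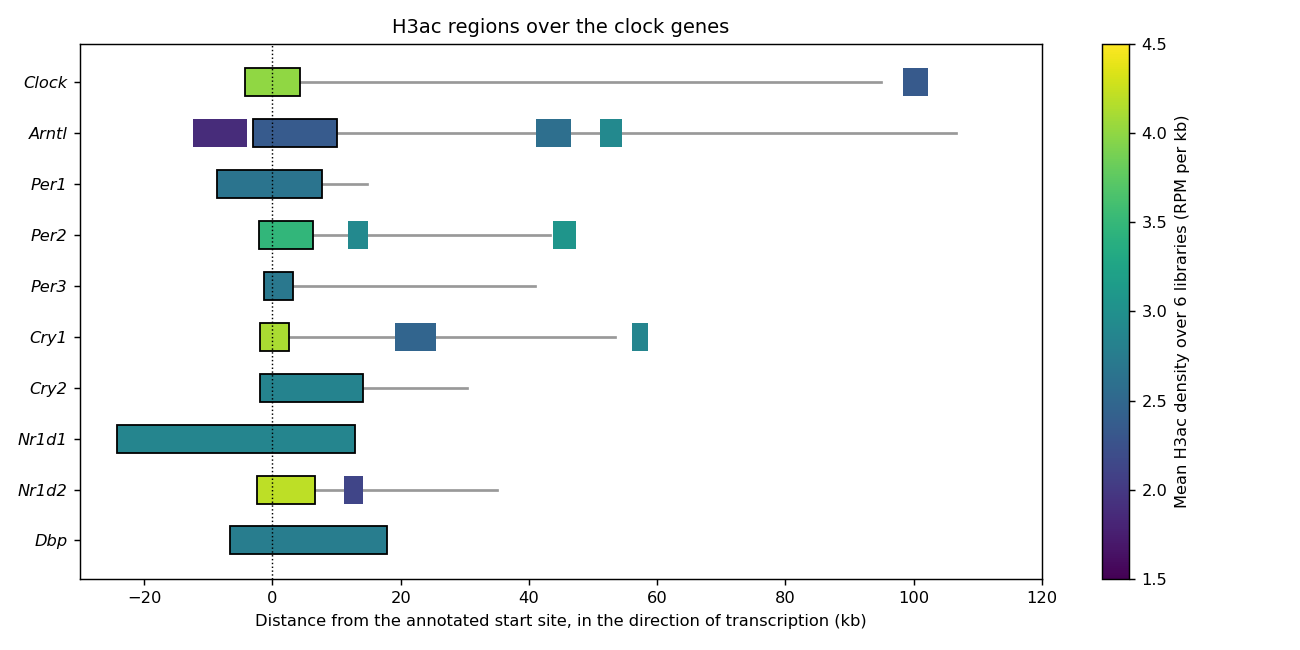
H3ac regions over the 10 clock genes, by distance from the annotated start site in kb in the direction of transcription. Grey lines are gene bodies, bars are regions (outlined where they are promoter regions) and colour is the mean density over the 6 libraries in RPM per kb. The outlined bars of Nr1d1 and Dbp run past the gene bodies, and the brightest bars are the promoter regions of Nr1d2, Cry1 and Clock.

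Divided by length, so that genes can be compared, the mean density of the promoter regions over the 6 libraries ran from 4.20 ± 0.654 RPM per kb (SD, n = 6) at Nr1d2 to 2.35 ± 0.353 at Arntl. The median of all 9892 promoter regions was 3.07 RPM per kb. Nr1d2, Cry1, Clock and Per2 lay above it and the other 6 genes below. In density, Cry1 followed Nr1d2 at 4.12 ± 1.29 RPM per kb, Clock stood at 4.00 ± 0.729 and Per2 at 3.48 ± 0.864. Nr1d1 (2.86), Cry2 (2.84), Dbp (2.76), Per3 (2.71) and Per1 (2.65) were close together. Among all promoter regions the mean density of Nr1d2 was at percentile 91.0, Cry1 at 89.5, Clock at 87.1, Per2 at 70.6 and Arntl at 10.7.

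The ranges over the 6 libraries, which include the differences between groups, overlapped for each of the 9 pairs of neighbours in this order. No pair kept its order in all 6 libraries. Within libraries, Nr1d2 was denser than Cry1 in 3 of 6, Cry1 than Clock in 4, Clock than Per2 in 4, and Per2 than Nr1d1 in 5. Further down, Nr1d1 was denser than Cry2 in 3, Cry2 than Dbp in 5, Dbp than Per3 in 3, Per3 than Per1 in 5 and Per1 than Arntl in 5. Nr1d2 and Clock were above the median of all promoter regions in all 6 libraries, and Per1 and Arntl in 0. Cry1 and Per2 were above it in 4 of 6, the exceptions being Old replicate 2 and OldAcetate replicate 1 for Cry1 and both Old libraries for Per2.

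**Figure D2:**
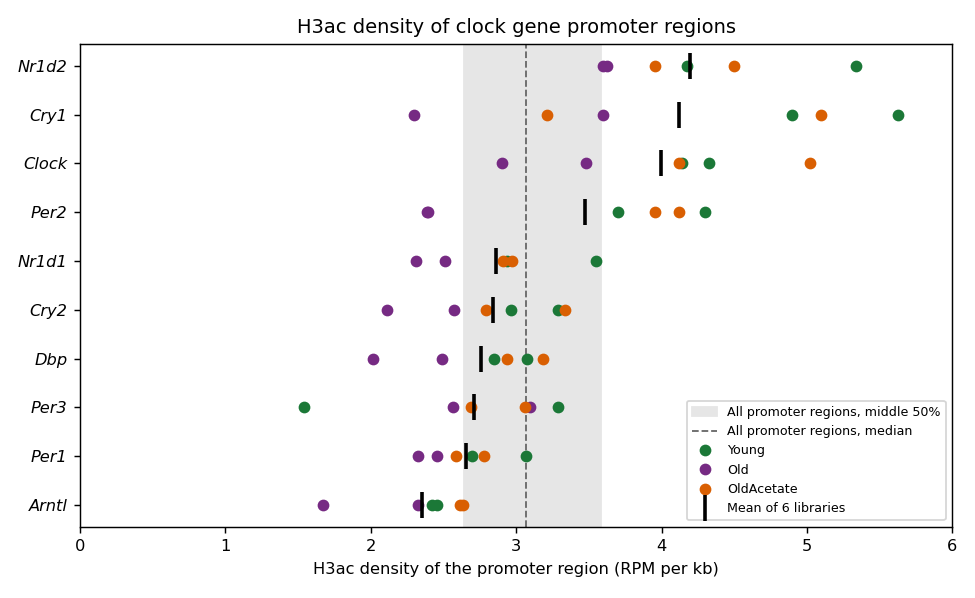
H3ac density (RPM per kb) of the promoter region of each clock gene. Points are libraries coloured by group, black ticks are means of 6 libraries, the grey band is the middle 50% of the mean densities of all promoter regions and the dashed line their median. Nr1d2, Cry1, Clock and Per2 have means right of the dashed line, and the leftmost point is an Old library at 9 of the genes, Per3 being the exception.

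The promoter levels were taken next, by role in the loop, beginning with the activators. At Clock (chr5:76300501-76309000), which encodes the partner of ARNTL, H3ac was 35.2 and 36.8 RPM in Young against 29.6 and 24.7 in Old, with 42.7 and 35.0 in OldAcetate. Both Old libraries were below all others. Arntl (chr7:113204501-113217500) encodes the partner of CLOCK, a protein that the loop cannot run without. Its values were 31.9 and 31.5 RPM in Young against 21.7 and 30.2 in Old, with 33.9 and 34.2 in OldAcetate. Old replicate 1 was far below Old replicate 2, which itself was only just below the Young libraries, and both OldAcetate libraries were above both Young ones.

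Among the Per genes, which encode the inhibitors that enter the nucleus with the cryptochromes, Per1 (chr11:69086501-69103000) gave 50.7 and 44.5 RPM in Young against 38.4 and 40.6 in Old, with 42.7 and 45.9 in OldAcetate. The Old values were the lowest, but the gap to the nearest OldAcetate library was small. Per2 (chr1:91453001-91461500) gave 36.5 and 31.5 RPM in Young against 20.3 and 20.3 in Old, with 33.6 and 35.0 in OldAcetate. The 2 Old libraries were almost equal and well below the other 4, while Young and OldAcetate overlapped. Per3 (chr4:151041501-151046000), which is not needed for the loop to run, gave 14.8 and 6.94 RPM in Young against 11.6 and 13.9 in Old, with 12.1 and 13.8 in OldAcetate. Its lowest and its highest value were the 2 Young libraries, so that Young overlapped both other groups. Per3 had 17 reads in Young replicate 2, where counting error alone was 24.3%.

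Of the cryptochromes, the repressors proper of CLOCK and ARNTL, Cry1 (chr10:85182501-85187000) gave 22.0 and 25.3 RPM in Young against 16.2 and 10.3 in Old, with 14.4 and 22.9 in OldAcetate. Young was above Old without overlap, and the OldAcetate libraries fell on either side of Old replicate 1. Cry2 (chr2:92420001-92436000) gave 52.6 and 47.4 RPM in Young against 41.1 and 33.8 in Old, with 53.4 and 44.6 in OldAcetate. Both Old libraries were below the others and the Young and OldAcetate libraries interleaved.

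The REV-ERB gene Nr1d1 (chr11:98762501-98799500) gave 131 and 109 RPM in Young against 92.9 and 85.5 in Old, with 109.9 and 108 in OldAcetate. Its paralog Nr1d2 (chr14:18232501-18241500) gave 48.0 and 37.6 RPM in Young against 32.4 and 32.6 in Old, with 35.6 and 40.5 in OldAcetate. At both genes the Old libraries were below the rest and close to each other, and the highest value was Young replicate 1. The output gene Dbp (chr7:45698501-45723000) gave 75.3 and 69.8 RPM in Young against 61.0 and 49.3 in Old, with 71.9 and 78.0 in OldAcetate, again with both Old libraries lowest.

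**Figure D3:**
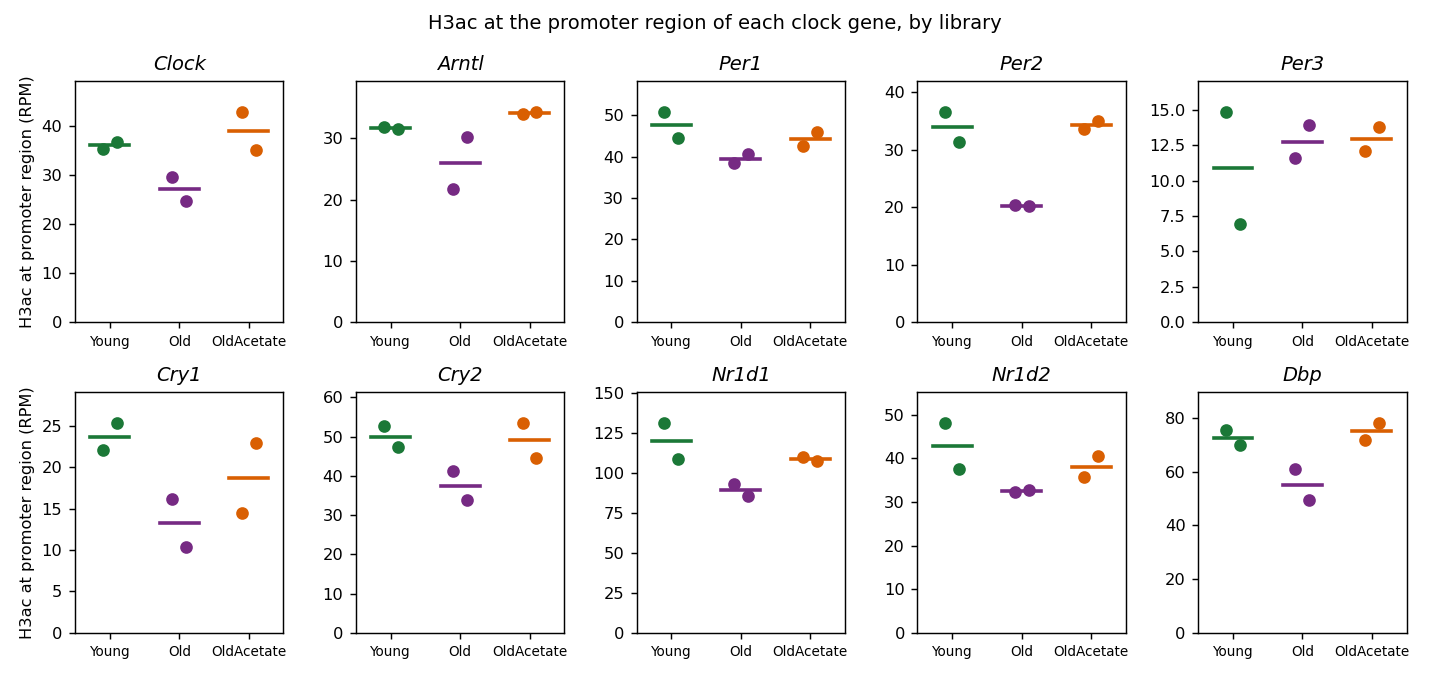
H3ac (RPM, each axis from 0) at the promoter region of each clock gene. Points are the 2 libraries of a group and lines their mean. The 2 Old points are the lowest of 6 at 8 genes, at Cry1 1 OldAcetate point lies between them, and at Per3 the Young points span the others.

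The first comparison, Old with Young, asks whether H3ac differs with the age of the mice. In RPM, 9 of the 10 promoter regions were lower in both Old libraries than in either Young library, and the mean in Old was between 56.0% (Cry1) and 82.9% (Per1) of that in Young at these 9. Per2 was at 59.8%, Clock at 75.4%, Nr1d1 at 74.4% and Dbp at 76.0%, while Per3 was at 117% with overlap. The same non-overlap held for 65.7% of all promoter regions, a share that, like those given below, was not matched for level. The median of their mean levels was 18.5 RPM, and of the clock gene promoter regions only that of Per3 lay below it. The clock genes thus lay in a table that was lower in Old on the whole: the median log2 difference in RPM was -0.35 for all regions and -0.36 for all promoter regions, and that of the clock gene promoter regions -0.40.

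To compare each region with the rest, a scaled level was used, log2(RPM + 0.5) minus the median deviation of the library, which removes a shift shared by all regions. On this scale the median difference of the 10 promoter regions was -0.053, against -0.0058 for all promoter regions. With limma, 0 of 19 clock gene regions were called at an adjusted p under 0.05 (background 0.00819% of all regions), and edgeR on the recovered reads with RLE factors also called 0. At an unadjusted p under 0.05 there were 3, the promoter regions of Per2, Per3 and Cry1, against 4.96% of all promoter regions.

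Per2 had scaled log2 levels of 4.97 and 4.92 in Young and 4.51 and 4.63 in Old, without overlap (log2 difference -0.37, SE 0.17, 95% interval -0.72 to -0.027, limma adjusted p = 0.894). Cry1 had 4.25 and 4.61 in Young and 4.19 and 3.69 in Old (log2 difference -0.49, SE 0.23, 95% interval -0.95 to -0.032, limma adjusted p = 0.894). The Cry1 groups were apart by little, since its higher Old library came close to its lower Young library. Per3 went the other way, at 3.69 and 2.81 in Young and 3.72 and 4.10 in Old (log2 difference 0.65, SE 0.27, 95% interval 0.11 to 1.20, limma adjusted p = 0.855). That difference rested on Young replicate 2: it was 0.22 without it, and at most 1.09 when any other of the 4 libraries was left out. On the scaled level 3 promoter regions (Per2, Cry1 and Nr1d1) were lower in Old without overlap and 1 (Per3) was higher, against 17.0% and 16.8% of all promoter regions. The remaining promoter regions lay between -0.070 (Nr1d1) and 0.085 (Per1), and their 95% intervals reached no further than -0.39 (Clock) and 0.41 (Arntl).

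Without scaling, limma called 9.52% of all regions, a background that counts both directions and does not set promoter regions apart. Among the 19 clock gene regions it called 3, all lower in Old. They were the promoter regions of Per2 (log2 difference -0.72, limma adjusted p = 0.0178), Cry1 (-0.84, limma adjusted p = 0.0219) and Nr1d1 (-0.42, limma adjusted p = 0.0327), and edgeR without factors called the same 3. The number depended on the libraries: it rose without Old replicate 1 and fell without any other library. No share of all regions is given for those fits or for edgeR without factors. The change in number thus cannot be read as one of the clock genes alone. When the regions of a gene were summed, 6 of 10 genes were called lower in Old without scaling (Arntl, Per2, Cry1, Cry2, Nr1d1 and Dbp) and 0 with it. Cry2, Nr1d1 and Dbp have 1 region each, so their sums are their promoter regions. In the fit over regions those of Cry2 and Dbp were not called (limma adjusted p = 0.0838 and 0.0639). Over the 14155 genes with a region the background was 33.1% and 0%. Among the sums, Cry1 was 45.4 and 51.9 RPM in Young and 34.2 and 28.6 RPM in Old (unscaled log2 difference -0.62, limma adjusted p = 0.00466). At an unadjusted p under 0.05 the scaled sums gave 1 gene, Per3, which has its promoter region only, and edgeR with RLE factors called 0. That region was already counted against 4.96% of all promoter regions. No share over all sums at this p is given, here or in the later comparisons. The unscaled calls on sums rose in number without Young replicate 2 and fell without any other library, again with no share over all genes for those fits.

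The second comparison, OldAcetate with Old, asks whether acetate changes H3ac in old cells. In RPM, 8 of 10 promoter regions were higher in both OldAcetate libraries than in either Old library, the exceptions being Per3 and Cry1. Their means were between 112% (Per1) and 169% (Per2) of the mean in Old, with Clock at 143%, Dbp at 136%, Arntl at 131% and Cry2 at 131%. This non-overlap held for 58.6% of all promoter regions, and the median log2 difference in RPM was 0.24 over all regions, 0.29 over all promoter regions and 0.39 over the clock gene promoter regions. Old is in both comparisons, so the 2 sets of values are not independent.

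On the scaled level the median difference of the 10 promoter regions was 0.16, beside 0.053 for all promoter regions. It was 0.059 without Old replicate 2 and 0.092 without OldAcetate replicate 2. limma called 0 of 19 regions (background 0%), as did edgeR with and without factors, and 1 region, the Per2 promoter, had an unadjusted p under 0.05 (6.04% of all promoter regions). Per2 stood at 5.03 and 5.11 in OldAcetate on the scaled level, above both Old libraries (log2 difference 0.50, SE 0.17, 95% interval 0.16 to 0.85, limma adjusted p = 0.670). Leaving out any library of the pair gave 0.44 to 0.56. With Per2, the scaled levels of Clock (log2 difference 0.27), Nr1d1 (0.047) and Dbp (0.21) were higher in OldAcetate without overlap, 4 of 10, against 22.3% of all promoter regions. The 95% intervals of the 9 other promoter regions included 0 and ran from -0.76 (Per3) to 0.70 (Cry1).

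Without scaling, 0 of the 19 regions were called by limma (background 0.311%). The Per2 promoter came nearest (log2 difference 0.74, limma adjusted p = 0.0548), and it was called, as the only region, when either Young library was left out of the shared fit. Of the gene sums, 2 were called higher in OldAcetate without scaling (background 7.52%). Cry1 had 41.3 and 49.2 RPM in OldAcetate (unscaled log2 difference 0.52, limma adjusted p = 0.0395), and Dbp had 71.9 and 78.0 RPM in OldAcetate (0.45, limma adjusted p = 0.0420). The Cry1 sum includes the region over the start of Mterf2. The Dbp sum is its promoter region alone, whose level is shared with 4 other starts. In the fit over regions this same region was not called (limma adjusted p = 0.117). The number of calls rose without either Young library and fell without Old replicate 2 or either OldAcetate library. No share over all genes is given for those fits. With edgeR without factors, 0 sums were called. With scaling no sum was called (background 0%), none had an unadjusted p under 0.05, and edgeR with RLE factors called 0.

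The third comparison, OldAcetate with Young, sets treated old cells beside untreated young ones. The promoter means in OldAcetate were 78.9% (Cry1) to 119% (Per3) of those in Young, with Per2 at 101%. Only at Arntl were both OldAcetate libraries above both Young libraries in RPM, 1 of 10 against 10.3% of all promoter regions, and at no promoter were both below. The median scaled log2 difference of the 10 was 0.10, beside 0.052 for all promoter regions, and 0.045 without Young replicate 2. On the scaled level Arntl, Per2 and Dbp were higher in OldAcetate without overlap, 3 of 10 against 23.9%. limma called 0 of 19 regions with scaling (background 0%) and 0 without it (background 0%), and edgeR called 0 either way. No clock gene region had an unadjusted p under 0.05, against 4.67% of all promoter regions. Of the gene sums, 0 of 10 were called with scaling (background 0%) or without (background 0%), with 0 at an unadjusted p under 0.05 and 0 by edgeR.

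These results do not show that the promoters were alike in OldAcetate and Young. The 95% interval of the scaled log2 difference was -0.22 to 0.17 at Nr1d1, the region with the most reads. It was -0.22 to 0.48 at Per2, -0.72 to 0.21 at Cry1 and -0.10 to 0.98 at Per3, the widest of the 10.

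**Figure D4:**
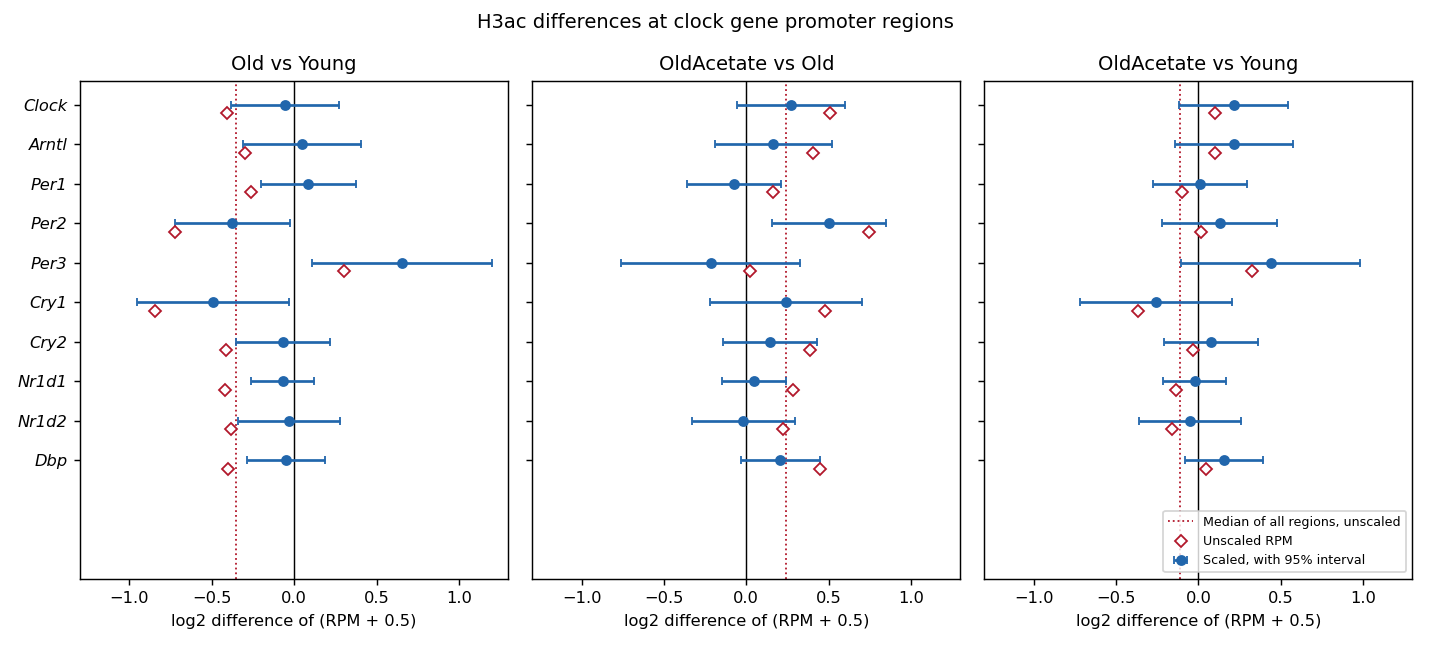
Differences of H3ac at clock gene promoter regions in the 3 comparisons, on the log2(RPM + 0.5) scale. Blue points are scaled differences with 95% intervals from limma, open red diamonds are unscaled differences and the dotted red line is the unscaled median of all regions. The dotted line lies left of 0 in Old vs Young and right of 0 in OldAcetate vs Old, and the blue intervals that leave 0 out are those of Per2, Per3 and Cry1 in Old vs Young and of Per2 in OldAcetate vs Old.

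Away from the starts, mean levels were lower, 6.36 to 16.1 RPM, and densities ran from 1.87 to 3.07 RPM per kb. The highest level was in an intron of Cry1 (chr10:85159501-85166000), with 16.5 and 15.9 RPM in Young against 15.3 and 11.9 in Old, with 18.5 and 18.4 in OldAcetate. Both OldAcetate libraries were above the 4 others there. The region upstream of Arntl (chr7:113195001-113203500) gave 18.8 and 18.8 RPM in Young against 17.1 and 10.3 in Old, with 13.8 and 16.7 in OldAcetate, with both Young libraries highest. Inside Arntl, 2 intronic regions gave means over all libraries of 14.2 and 10.2 RPM.

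Downstream of Per2, the region over the start of Hes6 (chr1:91412001-91415500) gave 11.8 and 12.7 RPM in Young against 9.71 and 9.15 in Old, with 9.74 and 11.3 in OldAcetate. Downstream of Clock, in the neighbouring Tmem165 (chr5:76202501-76206500), H3ac was 10.2 and 8.17 RPM in Young against 12.5 and 7.95 in Old, with 9.07 and 8.34 in OldAcetate. An intronic region of Nr1d2 (chr14:18225001-18228000) gave 10.2 and 3.68 RPM in Young against 5.08 and 4.77 in Old, with 7.73 and 6.67 in OldAcetate. The Old values were the lowest over the Hes6 start, by a margin smaller than counting error, the groups overlapped downstream of Clock, and in the Nr1d2 intron both OldAcetate libraries were above both Old libraries with Young on either side.

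With all 6 libraries, none of these 9 regions was called in any comparison, with or without scaling, and none had an unadjusted p under 0.05 on the scaled level. Without scaling, the region upstream of Arntl was called lower in Old than in Young when Old replicate 1 was left out (log2 difference -0.83, limma adjusted p = 0.0397), as was the region over the start of Mterf2 downstream of Cry1 when Old replicate 2 was left out (-1.47, limma adjusted p = 0.0423). The lowest p values in Old vs Young were at the Clock downstream region (log2 difference 0.47, SE 0.29, limma adjusted p = 0.907), the Mterf2 region (log2 difference -0.59, SE 0.37, limma adjusted p = 0.908) and the region inside Per2 at chr1:91444501-91447500 (log2 difference 0.25, SE 0.30, limma adjusted p = 0.958). In OldAcetate vs Old the same 3 came first, with scaled log2 differences of -0.43, 0.63 and -0.39. In OldAcetate vs Young they were the Cry1 intron (0.29), the Nr1d2 intron (0.31) and the region upstream of Arntl (-0.19). The Mterf2 region had the fewest reads, 6 in Old replicate 1, where counting error alone was 40.8%. In RPM, 5 of 9 were lower in Old than in Young without overlap (56.4% of all other regions), 5 of 9 were higher in OldAcetate than in Old (39.3%), and 3 of 9 were lower in OldAcetate than in Young (34.1%).

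The table marks each region with a code of Y, O and AC, which the labels do not define. Of the 19 clock gene regions, 17 carried all 3 and 2 carried AC and Y without O, namely the region upstream of Arntl and the Nr1d2 intron. Over all regions, 80.6% carried all 3 and 12.1% carried AC and Y. Both regions without O had reads in the Old libraries, 37 and 26 upstream of Arntl and 11 and 12 in the Nr1d2 intron.

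Summed over all 19 regions, H3ac was 613 and 543 RPM in Young against 459.9 and 417 in Old, with 549 and 562 in OldAcetate. Both Old libraries were below the 4 others, and OldAcetate lay within the span of Young. The group values were 578 ± 49.5 RPM (SD, n = 2) for Young, 439 ± 30.2 RPM for Old and 556 ± 9.32 RPM for OldAcetate. As a share of the reads in all regions, the clock gene regions held 0.0943% ± 0.00041 (SD, n = 2) for Young, 0.0915% ± 0.00092 for Old and 0.0979% ± 0.0029 for OldAcetate. The Old mean was then 97.1% of Young rather than 75.8%, and the OldAcetate mean 107% of Old rather than 127%.

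By their place in the loop, and not by the letters found here, Per1, Per2, Per3, Cry2, Nr1d1, Nr1d2 and Dbp were taken as an E-box group and Arntl, Clock and Cry1 as a group also under ROR and REV-ERB control. The promoter region of Per3 held no E-box, and that of Cry1 no ROR core. Outside the promoter regions, the highest number of ROR cores was 4, in the Cry1 intron (chr10:85159501-85166000) and upstream of Arntl. Among other regions of like length, 9.77% of 4045 and 18.3% of 3433 held as many. The mean scaled log2 level of the first group minus that of the second was 0.74 and 0.33 in Young against 0.68 and 0.77 in Old, with 0.63 and 0.55 in OldAcetate. The 2 Young libraries lay further apart than any 2 group means, and both OldAcetate libraries were below both Old libraries. Young replicate 2, the lowest of the 6, was also the library with the low Per3 value. The difference between the means of Old and Young was 0.19, which became 0.39 once Young replicate 1 was left out and -0.017 once Young replicate 2 was. With medians over genes it was 0.050, and without Per3, a choice made after seeing the data, 0.082. Between OldAcetate and Old the difference was -0.14, with medians -0.27 and without Per3 -0.090. These are levels of different regions on a log scale and are not divided by length, so they compare libraries and not genes.

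**Figure D5:**
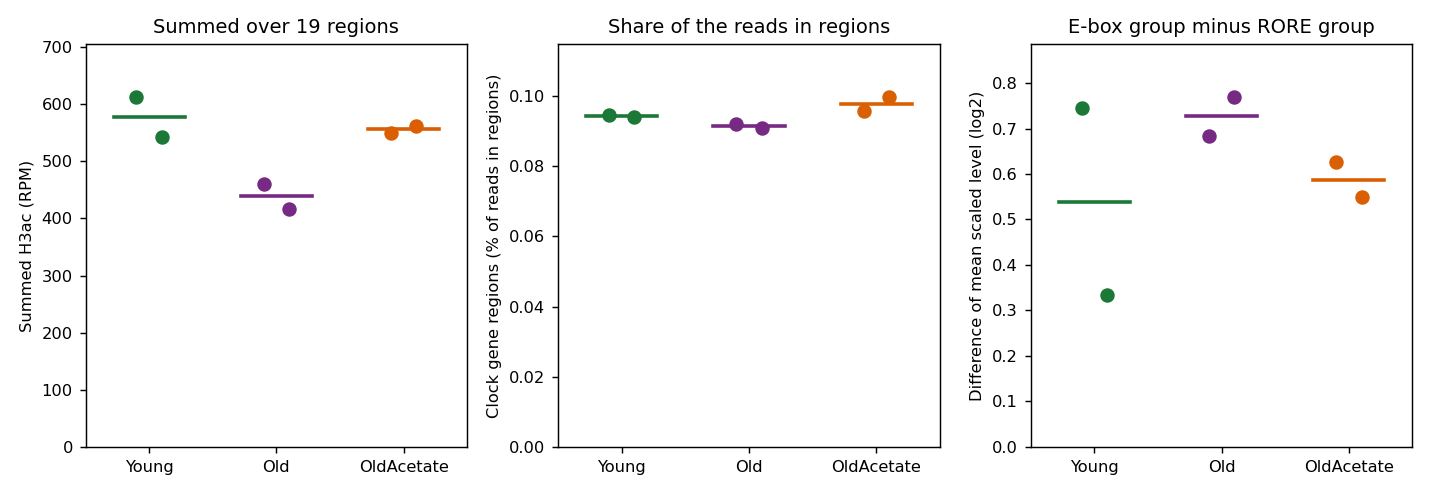
Clock gene regions by library (points) with group means (lines), each axis from 0. Left, RPM summed over the 19 regions; middle, their share of the reads in all regions (%); right, the mean scaled log2 level of the E-box group minus that of the ROR and REV-ERB (RORE) group. The Old points are lowest on the left and closer to Young in the middle, and the Young points are far apart on the right.

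A list of 17 further genes of the clock was read in the same fit, and each of the 17 had a promoter region. With scaling, limma called 0 of the 17 in each of the 3 comparisons, as did edgeR with RLE factors, and 1, 3 and 0 had an unadjusted p under 0.05 in Old vs Young, OldAcetate vs Old and OldAcetate vs Young, against 4.96%, 6.04% and 4.67% of all promoter regions. The share of all regions called with scaling was 0.00819%, 0% and 0%. For the 17 genes, the median scaled log2 differences were 0.016, 0.044 and 0.089. Bhlhe40 and Bhlhe41 encode the DEC repressors, which compete with CLOCK and ARNTL at E-boxes. Bhlhe40 gave 115 and 98.8 RPM in Young against 82.7 and 58.5 in Old, with 93.8 and 90.5 in OldAcetate. Bhlhe41 gave 53.3 and 48.6 RPM in Young against 33.7 and 33.0 in Old, with 51.1 and 51.7 in OldAcetate. Old was lowest at both without overlap. In RPM, 11 of the 17 were lower in both Old libraries than in either Young library and 0 were higher. Among all promoter regions, 65.7% were lower in this way. From Old to OldAcetate, 11 of the 17 were higher without overlap and 1 was lower, against 58.6% of all promoter regions higher.

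On the scaled level, Bhlhe40 (log2 difference -0.26, SE 0.11, limma adjusted p = 0.855), Bhlhe41 (log2 difference -0.25, SE 0.14, limma adjusted p = 0.898) and Csnk1d (log2 difference -0.26, SE 0.15, limma adjusted p = 0.898) had the lowest p in Old vs Young. Csnk1d encodes a casein kinase that phosphorylates PER proteins, and its H3ac was 48.7 and 44.1 RPM in Young against 29.1 and 31.4 in Old, with 52.8 and 45.5 in OldAcetate. Old was again lowest without overlap. Btrc, which encodes an F-box protein that marks phosphorylated PER for degradation, gave 20.1 and 12.7 RPM in Young against 11.1 and 10.7 in Old, with 22.5 and 17.1 in OldAcetate, and both OldAcetate libraries were above both Old libraries. In OldAcetate vs Old the lowest p were at Csnk1d (log2 difference 0.45, SE 0.15, limma adjusted p = 0.658), Bhlhe41 (log2 difference 0.38, SE 0.14, limma adjusted p = 0.734) and Btrc (log2 difference 0.58, SE 0.24, limma adjusted p = 0.768). In OldAcetate vs Young they were at Rorb, which encodes a ROR activator (log2 difference 0.52), Btrc (0.40) and Csnk1d (0.19). Without scaling, 4 were called lower in Old than in Young (Bhlhe40, Bhlhe41, Csnk1d and Cipc, whose product binds CLOCK and inhibits it), against the 9.52% of all regions given above, and edgeR without factors also called 4. Likewise 1 was called, Csnk1d, higher in OldAcetate than in Old (limma adjusted p = 0.0465), against 0.311%, and edgeR without factors called 0. The first number fell without Young replicate 1, Old replicate 2 or either OldAcetate library. The second fell without Old replicate 2 or either OldAcetate library and rose without either Young library. No share of all regions is given for those fits or for edgeR without factors.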

How the data were processed

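H3ac CUT&RUN libraries of mouse bone MSCs, 2 each of Young, Old and OldAcetate, were analysed from 1 deposited table of regions. The authors gave RPM values per region and library. The file is named as RPKM, but no division by length was found: 100.0% of values were whole multiples of 1 step per library (tolerance 0.01), and reads were recovered from it. Bowtie2, Picard and the build mm10 are named in the submitters' processing notes. Peak calling, versions and any use of the yeast DNA added to each reaction are not given in the sources used here. Genes and starts were taken from GENCODE release M21. Columns of the table other than the 6 libraries were only region names.

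Log2(RPM + 0.5) minus the median deviation of each library was fitted over all 24431 regions with limma 3.58.1 (all 6 libraries, trend and robust, Benjamini-Hochberg, threshold 0.05), and gene sums likewise over 14155 genes. edgeR 4.0.16 quasi-likelihood tests on recovered reads were an alternative. The tests were tested on simulated data. The clock genes and lists were chosen with earlier results of these data known. From the marker list and the list of further clock genes, 1 gene each is not reported here. All 10 genes are named with their promoter region, and of other regions the highest of each gene and the 3 with the lowest p per comparison. Of the further clock genes, the called ones or else the 3 with the lowest p, are named, with those called without scaling added after their values were seen. Software was R 4.3.3 and Python 3.11.15, with figures by matplotlib 3.10.9.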

Additional observations from a re-analysis of the deposited data

How the results depend on the processing

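With libraries scaled to the median, the counts of called regions, gene sums and further clock genes were 0 in the 3 comparisons under each alternative tried: pseudocounts of 0.1 and 1, quantile normalization, removal of the lowest 25%, a threshold of 0.01, other flanks and start-site windows, another variance model, only the compared libraries, edgeR with RLE factors and each library left out. Without scaling, Old vs Young gave 3 regions, 6 gene sums and 4 further clock genes, and edgeR without factors gave 3, 7 and 4. By limma the shares were 9.52% of all regions and 33.1% of all gene sums. For edgeR without factors no such share is given. Leaving out each library as well, an alternative added after seeing the data, gave 0 to 6 regions, 0 to 7 sums (5 without Old replicate 1) and 0 to 4 further genes. OldAcetate vs Old without scaling gave 0 regions, 2 sums and 1 further gene, and these counts too depended on the library left out. Without scaling the median log2 difference of the clock gene promoter regions was -0.40 for Old against Young, 0.39 for OldAcetate against Old and -0.0073 for OldAcetate against Young. With scaling and each library of the pair left out, the ranges in the same order were -0.10 to -0.041, 0.059 to 0.14 and 0.045 to 0.089. The difference of the E-box group minus the RORE group ran from -0.017 to 0.39 in Old vs Young and from -0.16 to 0.25 in OldAcetate vs Young when each library was left out, and was -0.22 in the latter with medians over genes. Divided by the reads in all regions, the summed level was 97.1% of Young in Old, 107% of Old in OldAcetate and 104% of Young in OldAcetate. In RPM the last was 90.6% to 102% with each library left out. In Old vs Young, promoter differences that changed sign without scaling were Arntl -0.30 and Per1 -0.26 on the log2 scale, and by edgeR without factors Arntl -0.27 and Per1 -0.27. The range of the scaled difference with each library left out crossed 0 in Old vs Young at Cry2 (-0.14 to 0.012), Clock (-0.17 to 0.056), Dbp (-0.14 to 0.041), Arntl (-0.24 to 0.34), Per1 (-0.015 to 0.19) and Nr1d2 (-0.13 to 0.062). In OldAcetate vs Old, promoter differences that changed sign without scaling were Per3 0.024, Per1 0.16 and Nr1d2 0.22 on the log2 scale, and by edgeR without factors Per3 0.0052, Per1 0.16 and Nr1d2 0.22. The range of the scaled difference with each library left out crossed 0 in OldAcetate vs Old at Arntl (-0.13 to 0.46), Cry1 (-0.10 to 0.58), Per1 (-0.18 to 0.027) and Nr1d2 (-0.12 to 0.087). In OldAcetate vs Young, promoter differences that changed sign without scaling were Cry2 -0.032 and Per1 -0.10 on the log2 scale, and by edgeR without factors Cry2 -0.025 and Per1 -0.11, and by quantile normalization Per1 -0.010. The range of the scaled difference with each library left out crossed 0 in OldAcetate vs Young at Cry2 (-0.036 to 0.20), Cry1 (-0.59 to 0.083), Per1 (-0.053 to 0.075), Nr1d1 (-0.077 to 0.032) and Nr1d2 (-0.15 to 0.055). With the replicate number as a block the counts stayed at 0. The differences between replicates 1 and 2 of a group correlated between groups at -0.043 to 0.0093 over regions. With a median of 31 to 56 reads in a region, this cannot show whether same-numbered libraries shared animals or a batch. The labels do not say. With 2 libraries a group and 6 to 399 reads in a clock gene region, depth and spread limit what could be called.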
